A study of Homo sapiens and Mus musculus with 16 samples.

Results

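The mRNAs described here are those of SK-HEP-1 cells after 4 h with AcFBE, the ethanol extract of the fruiting body of the fungus Antrodia cinnamomea, against cells given DMSO for the same time. A gene was taken where its level was at least 1 FPKM (fragments scaled to the length of the transcript and to the number mapped in the library) in 4U, the DMSO library, or in 4T, the AcFBE library. This gave 6120 of the 22314 genes of the table. SK-HEP-1 is a human cell line from a liver cancer. The cells were kept in DMEM with fetal bovine serum, AcFBE was dissolved in DMSO and used at 0.5 mg/ml, and polyadenylated RNA was sequenced on a SOLiD instrument after amplification of the cDNA by PCR. Libraries 2U and 2T hold the same conditions after 2 h. Each condition was 1 library, so no value has a replicate and no difference was tested. Reads per gene were not among the deposited values, which leaves the depth behind each FPKM unknown, and the bulk RNA cannot tell fewer cells with an mRNA from less of it per cell.

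A gene is counted as higher or lower in 4T where its FPKM differed at least 2-fold from 4U, a log2 ratio of at least 1 or at most -1, and the words rose and fell are kept for such genes. Values listed at 0 were left out of ratios, because a listed 0 can be a failed estimate. Of the 6120 genes, 5971 were above 0 in both libraries, 68 were listed at 0 in 4U and 81 in 4T. At least 1 FPKM was reached in both libraries by 4779 genes, in 4U alone by 826 and in 4T alone by 515.

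As background, cells answer growth factors, stress and unfolded protein with early response genes, whose mRNAs are made within minutes and are lost as quickly. FOS, JUN and EGR1 encode such transcription factors, and DUSP1 encodes a phosphatase that switches MAP kinases off. Heat shock factor raises the inducible HSP70 genes and DNAJB1 when protein folding is disturbed, while HSPA8, the chaperonin CCT and the proteasome serve protein folding and turnover in unstressed cells. Short-lived mRNAs of this kind show a change in transcription or decay sooner than the long-lived mRNAs of ribosomal proteins and metabolic enzymes.

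The cell line was checked against defining markers. Of 10 hepatocyte genes only SERPINA1 reached 1 FPKM at 4 h, at 13.8 FPKM in 4U against 8.59 in 4T, and ALB, APOA1 and TTR were listed at 0 in all 4 libraries. The 8 endothelial markers, PECAM1, CDH5 and VWF among them, were listed at 0 in both libraries at 4 h. None of 6 leukocyte markers reached 1 FPKM at 4 h, but in a longer list of 10 genes CD68, a lysosomal protein of macrophages and other cells, was at 10.1 FPKM in 4U against 8.8 in 4T. The keratin genes KRT8, KRT18 and KRT19 were at 3439, 6254 and 1599.7 FPKM in 4U, and VIM, the intermediate filament gene of mesenchymal cells, was at 6465. The other 3 epithelial markers, EPCAM, CDH1 and ESRP1, were listed at 0 in both libraries at 4 h, as was COL1A2 among the mesenchymal ones, and COL1A1 was at 0 in 4U. Of a longer endothelial list ENG, NOS3 and EGFL7 reached 1 FPKM at 4 h, ENG, a co-receptor for TGF-beta, at 22.3 FPKM in 2U and 24.8 in 4U against 14.1 in 2T and 8.65 in 4T. Keratin and vimentin mRNAs were thus abundant together, and of the defining liver genes SERPINA1 alone was expressed.

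Over the 5971 genes the median log2 ratio of 4T to 4U was -0.37, the quartiles were -1.09 and 0.60, and the middle 90% lay between -1.97 and 1.71. Of these genes 994 were at least 2-fold higher in 4T (16.6%) and 1681 lower (28.2%), and 176 were at least 4-fold higher and 280 lower. This balance rests on the scaling of the libraries, since it became 1467 higher and 965 lower with the median ratio set to 0, 1451 and 983 with the upper quartiles set equal, and 626 and 2348 with the median of the cytosolic ribosomal protein genes set to 0. Setting the median to 0 adds 0.37 to every log2 ratio. Counts of list members past 2-fold change with the scaling too, whereas the distance of a list's median from the median of all described genes does not, since each scaling shifts every gene alike.

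The other ratios between libraries show how far libraries differed. At 2 h, 2T was at least 2-fold higher than 2U in 23.4% of 5751 genes and lower in 18.1%, with a median log2 ratio of 0.06. The DMSO libraries also differed from each other, 4U being at least 2-fold higher than 2U in 24.9% of 5927 genes and lower in 8.66%. The AcFBE libraries were closer, 4T being higher than 2T in 6.22% of 5728 genes and lower in 4.82%. Values above 0 but below 0.2 FPKM were found for 2656 genes in 2U and 1173 in 2T and for 0 genes in 4U and 4T, so low values were not handled alike at the 2 times. Genes whose level was at least 100 FPKM in the higher library of 4 h had a median of -0.15 and were higher in 19.3% and lower in 15.2%, against medians of -0.46 to -0.32 in the lower bands of level.

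**Figure D1:**
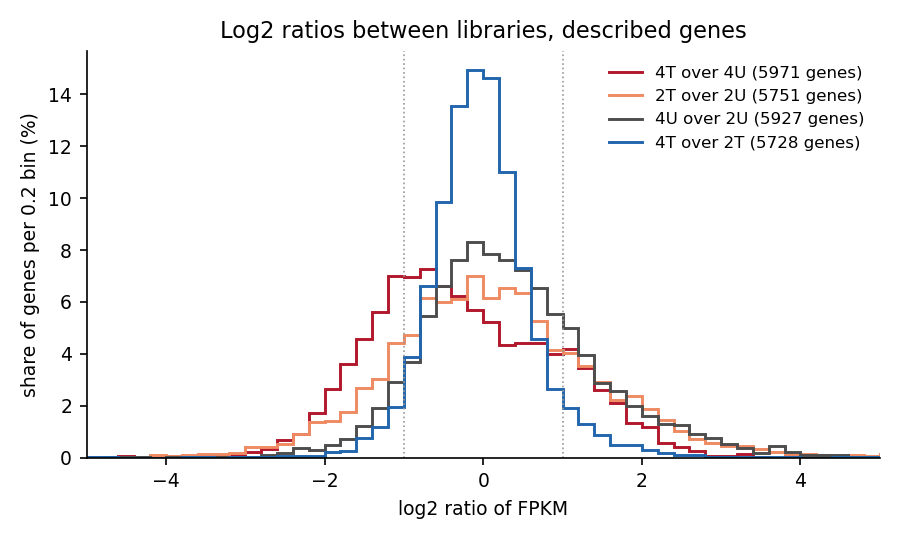
Share of described genes in each 0.2 bin of the log2 ratio of FPKM (horizontal axis), for 4 pairs of libraries (lines); dotted lines mark a 2-fold difference. The ratio of the AcFBE libraries (4T over 2T) is the narrowest, with 6.22% of genes at least 2-fold higher, and that of 4T over 4U has its median at -0.37.

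The ratio of 4T to 4U went with the GC content of the transcript. GC content was taken from the longest protein-coding transcript of each gene in GENCODE, or the longest transcript of a gene with none, which gave a value for 97.3% of the genes. Among the 1162 genes with the lowest GC content (30.7 to 43.7%) the median log2 ratio was 0.97, and 48.4% of the genes were higher and 3.53% lower. Among as many with the highest (60.2 to 74.3%) it was -1.14, and 1.38% were higher and 59.4% lower. Across 5810 genes Pearson's r between GC content and log2 ratio was -0.61 and Spearman's rho -0.65, a description of these libraries, since genes share the library and are not replicates. The source of this relation was not tested. With 1 library per condition, the treatment and the PCR amplification of each library cannot be separated. At 2 h r was -0.23 across 5605 genes, with medians of 0.73 at the lowest GC content and -0.07 at the highest. The ratio of 4U to 2U went the other way, from 0.10 to 0.68, and that of 4T to 2T from 0.26 to -0.38. Transcript length went with the ratio less, the medians of 5 groups by length lying between -0.56 and -0.11.

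Because lists of genes differ in GC content, the medians of lists and the ratios of many genes below are also given against genes of like GC content, as the log2 ratio minus the median of the described genes in the same of 20 equal groups by GC content. This step was added after the data had been seen. By it 605 of 5810 genes were at least 2-fold higher (10.4%) and 651 lower (11.2%) at 4 h, and at 2 h 20.1% of 5605 genes were higher and 18.3% lower. Counts on this like-GC scale give first the genes at least 2-fold higher and then those lower. The counts for each gene list below are to be set beside these shares of all genes, 16.6% higher and 28.2% lower on the scale as deposited and 10.4% and 11.2% on the like-GC scale. The part of GC content in any other result was not tested.

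**Figure D2:**
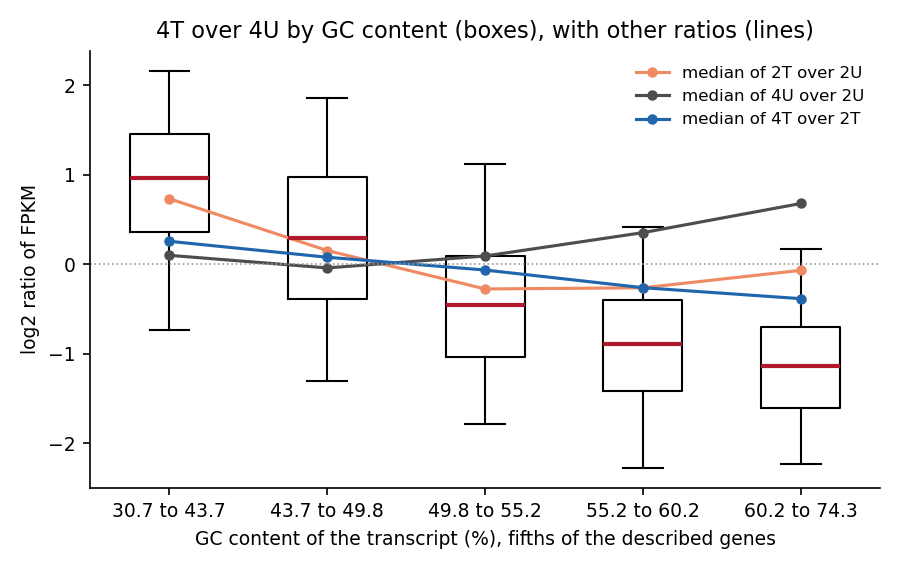
Log2 ratio of 4T to 4U (boxes, quartiles with the median in red, whiskers at 5 and 95%) in 5 equal groups of the described genes by the GC content of the transcript (%), with the medians of 3 other ratios as lines. The median of 4T over 4U goes from 0.97 at the lowest GC content to -1.14 at the highest, and that of 4U over 2U from 0.10 to 0.68.

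The libraries of 4 h and of 2 h share no library, so the 2 ratios to DMSO can be set side by side. Of 5694 genes with both ratios, 947 were at least 2-fold higher at 4 h, of which 471 (49.7%) were also higher at 2 h and 40 (4.22%) lower, where 23.4% and 18.1% of all 5694 genes were. Of the 1599 lower at 4 h, 572 (35.8%) were lower at 2 h and 174 (10.9%) higher. Against genes of like GC content, 604 of 5551 genes were lower at 4 h, and 265 of these (43.9%) were lower at 2 h and 71 (11.8%) higher, where 18.2% and 20.1% of all were.

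Heat shock genes held large falls and smaller rises. Of 32 heat shock chaperone genes and their partners, a list mainly of the cytosol that also holds HSPD1 and SERPINH1, 9 were higher (28.1%) and 9 lower (28.1%), against 16.6% and 28.2% of all genes, and on the scale of like GC content 3 were higher (9.38%) and 6 lower (18.8%), against 10.4% and 11.2%. On the scale as deposited the share that fell is thus that of all genes. HSPA1A, the inducible HSP70 (chromosome 6, 31783320 to 31785723 of GRCh37 in GENCODE), was at 2347 FPKM in 2U and 473 in 4U against 21.1 in 2T and 11.8 in 4T. Its log2 ratio at 4 h was -5.32, and -4.23 against genes of like GC content. The near-identical copy HSPA1B was at 1539 FPKM in 2U and 343 in 4U against 14.6 in 2T and 9.82 in 4T, and how reads were divided between the copies is not known. Both AcFBE libraries lay far below both DMSO libraries, and 2U stood above 4U.

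DNAJB1 encodes the HSP40 that feeds substrates to HSP70, and it stood at 2820.1 FPKM in 2U and 596 in 4U against 72.6 in 2T and 84.6 in 4T, a log2 ratio of -2.81 at 4 h. HSPA6, a strictly inducible HSP70 gene, was at 75.3 FPKM in 2U and 3.6 in 4U against 0.196 in 2T and 0.28 in 4T. The other 5 falls were smaller, and none of them passed 2-fold against genes of like GC content. The heat shock factor HSF1 had a log2 ratio of -1.64, the co-chaperone BAG3 of -1.56 and the collagen chaperone SERPINH1 of -1.60, which became -0.47, -0.70 and -0.68 against genes of like GC content. BAG3 was at 3.68 FPKM in 2U and 16.5 in 4U against 3.72 in 2T and 5.59 in 4T, so that 4U alone was high.

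The chaperones that rose included the constitutive HSP70 and those of mitochondria. HSPA8, the constitutive HSC70 (chromosome 11, 122928197 to 122933938), stood at 416 FPKM in 2U and 855 in 4U against 1849.8 in 2T and 2148 in 4T, a log2 ratio of 1.33. It lay below HSPA1A in 2U and above it in the other 3 libraries. HSP90AA1, a cytosolic HSP90, was at 109 FPKM in 2U and 36 in 4U against 141 in 2T and 111 in 4T, and HSP90AB1, its other isoform, at 958 FPKM in 2U and 305 in 4U against 610.2 in 2T and 632 in 4T. For both HSP90 genes the low value was that of 4U, and 2U was close to or above 4T. HSPD1, the chaperonin of mitochondria, was at 11.2 FPKM in 2U and 15.9 in 4U against 64.7 in 2T and 58.5 in 4T and was higher in both AcFBE libraries than in either DMSO library. Against genes of like GC content HSPD1 stood at 1.30 and HSP90AA1 at 1.14, while HSPA8 at 0.85 and HSP90AB1 at 0.94 stayed under 2-fold.

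The 250 bases before the RefSeq starts of 5 of these genes are shown because genes that moved together, or apart, can be compared by the motifs they hold. They are from the RefSeq promoter table, placed by exact match on GRCh37, 5′ to 3′ along the gene, with the motifs found in capitals. HSPA1A is chr6:31783070-31783319, HSPA8 is chr11:122932845-122933094, FOS is chr14:75745281-75745530, EGR1 is chr5:137800918-137801167 and DUSP1 is chr5:172198199-172198448, HSPA8 and DUSP1 on the minus strand. RefSeq and GENCODE differ in the start of HSPA8, so that its window lies inside the longer gene given above, and distances below are from the RefSeq starts.
HSPA1A: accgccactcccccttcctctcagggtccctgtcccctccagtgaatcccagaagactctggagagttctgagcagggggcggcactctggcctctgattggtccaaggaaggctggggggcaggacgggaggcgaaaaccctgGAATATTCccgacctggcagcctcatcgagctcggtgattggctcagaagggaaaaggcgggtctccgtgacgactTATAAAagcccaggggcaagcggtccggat
HSPA8: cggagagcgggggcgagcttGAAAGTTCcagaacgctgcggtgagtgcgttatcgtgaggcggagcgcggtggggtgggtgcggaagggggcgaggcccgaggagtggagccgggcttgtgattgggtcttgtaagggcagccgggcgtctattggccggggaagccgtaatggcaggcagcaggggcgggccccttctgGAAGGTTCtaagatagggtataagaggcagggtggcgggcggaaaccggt
FOS: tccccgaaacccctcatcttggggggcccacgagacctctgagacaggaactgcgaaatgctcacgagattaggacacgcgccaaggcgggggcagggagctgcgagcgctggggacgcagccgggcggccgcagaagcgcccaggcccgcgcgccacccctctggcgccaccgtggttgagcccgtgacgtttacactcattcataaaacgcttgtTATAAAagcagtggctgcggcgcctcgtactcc
EGR1: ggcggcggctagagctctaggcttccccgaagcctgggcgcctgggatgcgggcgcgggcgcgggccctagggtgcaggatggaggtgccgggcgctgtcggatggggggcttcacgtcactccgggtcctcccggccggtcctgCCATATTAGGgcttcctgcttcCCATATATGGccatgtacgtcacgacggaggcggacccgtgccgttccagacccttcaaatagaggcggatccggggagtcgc
DUSP1: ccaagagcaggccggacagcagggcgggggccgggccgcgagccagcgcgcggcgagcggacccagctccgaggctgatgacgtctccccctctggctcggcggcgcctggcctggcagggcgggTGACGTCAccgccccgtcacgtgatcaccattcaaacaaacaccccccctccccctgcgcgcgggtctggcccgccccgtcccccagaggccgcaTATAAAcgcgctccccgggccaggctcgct

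The motifs searched on both strands were the heat shock element GAANNTTC, the cAMP response element TGACGTCA, the AP-1 site TGANTCA, the TATA box TATAAA and the CArG box, to which serum response factor binds, and none of the matches shown overlap. HSPA1A holds 1 heat shock element that starts 106 bases before the start and a TATA box at 30 bases. HSPA8 holds 2 heat shock elements, at 230 and 50 bases. EGR1 holds 2 CArG boxes, at 105 and 83 bases, and DUSP1 a cAMP response element at 125 bases and a TATA box at 30. FOS holds a TATA box at 33 bases and none of the others in this window.

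The heat shock element stood in the promoter of 7.05% of the 27303 genes of the table and of 5.28% of the 4865 described genes with a promoter there. Among 27 chaperone genes with a promoter it stood in 13 (48.1%). It was in 5 of the 7 that fell (HSPA1A, HSPA1B, HSPA6, DNAJB1 and SERPINH1) and in 5 of the 8 that rose (HSPA8, HSP90AA1, HSP90AB1, DNAJA1 and HSPD1). Chaperone genes with these letters were thus found in both directions. Among early response genes, the CArG box, the cAMP response element and the heat shock element each stood in 2 of 12 promoters of the EGR, IER and KLF list, where 1.52%, 3.56% and 5.28% of the described genes and 1.44%, 2.03% and 7.05% of all genes held them. The AP-1 site stood in 0 of 12, against 5.26% and 8.06%. In the AP-1 and ATF3 list the CArG box and the AP-1 site stood in 0 of 8 promoters. The heat shock element stood in 1 of these 8 and the cAMP response element in 2. In the DUSP, SPRY and SPRED list the cAMP response element stood in 1 of 6 promoters and those other motifs in 0. The TATA box stood in 2 of 12, 4 of 8 and 1 of 6 promoters of these lists, against 6.91% of the described genes. A match is a description of the letters and not of binding.

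**Figure D3:**
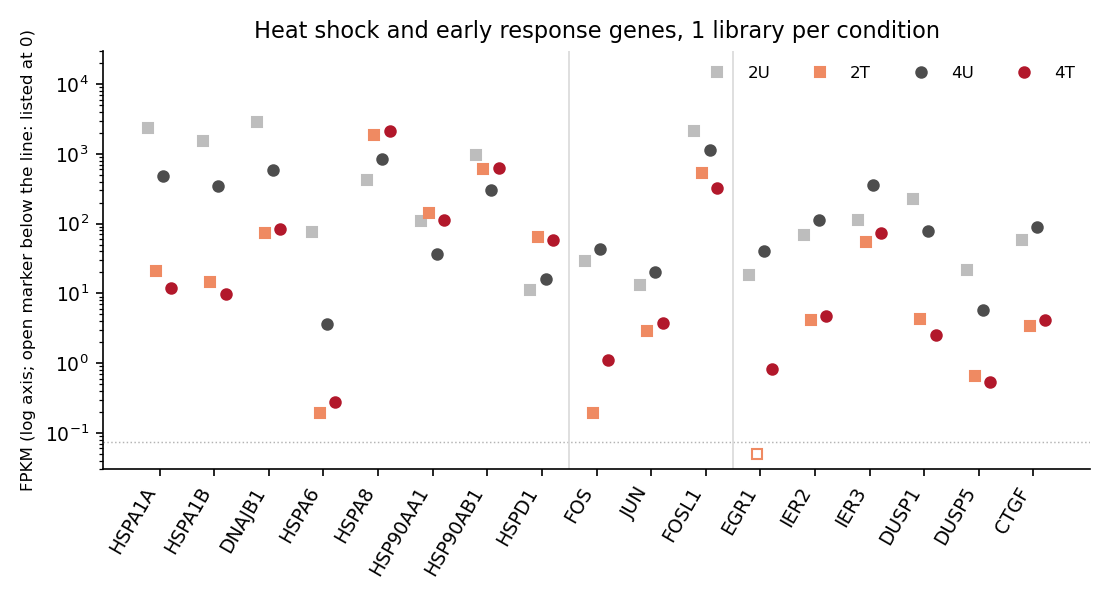
FPKM (log axis) of heat shock and early response genes in the 4 libraries, 1 per condition; squares are 2 h and circles 4 h, grey is DMSO and orange or red is AcFBE, and EGR1 was listed at 0 in 2T. HSPA1A is at 473 in 4U and 11.8 in 4T, HSPA8 at 855 and 2148, and FOS at 43.3 and 1.09.

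Most AP-1 genes were lower in both AcFBE libraries. Of 10 genes of AP-1 members and ATF3 above 0 in both libraries, 9 were lower and 0 higher, where 28.2% and 16.6% of all genes were, with a median log2 ratio of -1.93 at 4 h and -2.00 at 2 h. FOS (chromosome 14, 75745529 to 75748933), whose protein pairs with JUN to form AP-1, was at 29.4 FPKM in 2U and 43.3 in 4U against 0.193 in 2T and 1.09 in 4T. JUN was at 13.4 FPKM in 2U and 20.2 in 4U against 2.93 in 2T and 3.72 in 4T. FOSL1, the AP-1 gene with the highest level, was at 2134 FPKM in 2U and 1149 in 4U against 532 in 2T and 324 in 4T. ATF3, a stress-induced repressor, was at 2.7 FPKM in 2U and 16 in 4U against 1.68 in 2T and 1.73 in 4T, so that its 4U value alone was high and 2U was close to the AcFBE libraries. With GC content taken into account 5 of the 10 were at least 2-fold lower, against 11.2% of all genes, with a median of -1.02. FOS stood at -4.76, ATF3 at -3.09 and JUN at -1.71, while FOSL1 at -0.90 and JUND at -0.38 did not pass 2-fold.

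The EGR, IER and KLF list had 10 of 14 genes lower (71.4%, against 28.2% of all genes) and 0 higher at 4 h and a median of -1.81, or -1.33 against genes of like GC content, where 8 were lower. At 2 h 9 of 13 were lower and 2 higher, and 18.1% and 23.4% of all genes. EGR1 (chromosome 5, 137801168 to 137804992), a zinc finger factor induced by growth signals, was at 18.6 FPKM in 2U and 39.8 in 4U against a listed 0 in 2T and 0.81 in 4T, a log2 ratio of -5.62. IER2, an immediate early gene of serum-treated cells, was at 69.5 FPKM in 2U and 114 in 4U against 4.13 in 2T and 4.75 in 4T. IER3, which protects cells from death signals, was at 111 FPKM in 2U and 354 in 4U against 54.6 in 2T and 73.9 in 4T. All 3 were lower in both AcFBE libraries than in both DMSO libraries, IER3 by the smallest margin. PPP1R15A, the subunit that directs a phosphatase to eIF2 alpha, was at 32.9 FPKM in 2U and 31 in 4U against 7.68 in 2T and 6.83 in 4T. SRF and RHOB had log2 ratios of -0.84 and -0.75 and did not pass 2-fold, and RHOB was higher at 2 h with a log2 ratio of 2.26. MYC, a transcription factor of growth and an early response gene, was at 5.14 FPKM in 2U and 55 in 4U against 15.3 in 2T and 11.6 in 4T, so that it fell at 4 h and was the other gene that was higher at 2 h. EGR4, a relative of EGR1, and ZFP36, which binds AU-rich mRNAs for decay, were above 1 FPKM in 4U and listed at 0 in 4T.

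Among feedback phosphatases of the MAP kinases DUSP1 and DUSP5 fell. DUSP1 (chromosome 5, 172195099 to 172198198) stood at 227 FPKM in 2U and 79.1 in 4U against 4.33 in 2T and 2.53 in 4T, a log2 ratio of -4.97 at 4 h and -5.71 at 2 h. DUSP5, a nuclear phosphatase for ERK, was at 21.8 FPKM in 2U and 5.84 in 4U against 0.658 in 2T and 0.537 in 4T. The remaining members above 0 in both libraries, DUSP6, ERRFI1, DUSP3 and DUSP14, had log2 ratios between -0.79 and -0.41, so that 2 of the 6 genes passed 2-fold (33.3%), a share near that of all genes (28.2%). On the like-GC scale 4 of the 6 did. SPRY2 was at 2.75 FPKM in 4U and listed at 0 in 4T.

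Stress pathways outside the heat shock response had members in both directions. Of 23 targets of ATF4, the factor made when amino acids are short or the ER is stressed, 3 were higher and 12 lower, with a median of -1.10, and -0.51 with 0 higher and 6 lower against genes of like GC content. GDF15, a secreted stress hormone, was at 96.4 FPKM in 2U and 65.2 in 4U against 8.62 in 2T and 6.69 in 4T. DDIT3, which encodes the death-promoting factor CHOP, was at 116 FPKM in 2U and 50.2 in 4U against a listed 0 in 2T and 11 in 4T. SESN2, a sestrin that restrains mTORC1, was at 12.7 FPKM in 2U and 5.41 in 4U against 0.891 in 2T and 0.688 in 4T. ATF4 itself was at 431 FPKM in 4U against 309.7 in 4T, a log2 ratio of -0.48. ASNS, the asparagine synthetase, rose and was at 15.9 FPKM in 2U and 3.97 in 4U against 10.2 in 2T and 12.4 in 4T, with 4U the lowest of the 4 values.

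Among 17 ER chaperones and regulators, 4 rose and 1 fell (on the like-GC scale 5 and 2). HSP90B1, the HSP90 of the ER, was at 19.1 FPKM in 2U and 11.5 in 4U against 48.9 in 2T and 41 in 4T, and PDIA6, a disulfide isomerase, was at 39.4 FPKM in 2U and 37.9 in 4U against a listed 0 in 2T and 172 in 4T. HERPUD1, a gene of ER-associated degradation, fell and was at 164 FPKM in 2U and 23.6 in 4U against 5.48 in 2T and 8.32 in 4T. HSPA5, the main ER chaperone BiP and the usual reporter of ER stress, was at 40.9 FPKM in 2U and 47.2 in 4U against 50.7 in 2T and 52.9 in 4T, which is less than a 2-fold range. The list stood at a median of 0.34, and at 0.79 against genes of like GC content at 4 h and -0.43 at 2 h.

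Of 18 targets of the antioxidant factor NRF2, 4 rose and 6 fell (22.2% and 33.3%, against 16.6% and 28.2% of all genes), and on the like-GC scale 2 and 3. HMOX1, the heme oxygenase, was at 5.42 FPKM in 2U and 5.24 in 4U against 3.3 in 2T and 1.42 in 4T, and SQSTM1, the autophagy receptor p62, was at 379 FPKM in 2U and 163 in 4U against 65.2 in 2T and 58.4 in 4T. PRDX1, a peroxiredoxin, was at 1428 FPKM in 2U and 1444 in 4U against 2397 in 2T and 3323 in 4T, and TXNRD1, the thioredoxin reductase, at 12.1 FPKM in 2U and 7.36 in 4U against 23.2 in 2T and 18.6 in 4T. Of 11 metallothionein and zinc transport genes 1 rose and 1 fell (on the like-GC scale 2 and 1), and MT2A, the most abundant, was at 3750.0 FPKM in 2U and 12839 in 4U against 6551 in 2T and 8362 in 4T. Of 15 p53 targets 1 rose (6.67%, against 16.6% of all genes) and 8 fell (53.3%, against 28.2%), and on the like-GC scale 1 and 5 (6.67% and 33.3%, against 10.4% and 11.2%). The list had a median of -1.16 that became -0.32 against genes of like GC content. CDKN1A, the cell cycle inhibitor p21, was at 193 FPKM in 2U and 89.1 in 4U against 20.9 in 2T and 30.7 in 4T. PLK3, a stress kinase, was at 24.7 FPKM in 2U and 17.2 in 4U against 2.47 in 2T and 1.92 in 4T, and GADD45B at 47 FPKM in 2U and 21.2 in 4U against 4.28 in 2T and 5.22 in 4T. All 3 were lower in both AcFBE libraries than in either DMSO library. Against genes of like GC content at 4 h PLK3 stood at -2.09 and GADD45B at -1.16, while CDKN1A at -0.62 did not pass 2-fold. Of 11 hypoxia response genes 2 rose and 5 fell (18.2% and 45.5%), and on the like-GC scale 1 and 4. Among those that fell was SLC2A1, the glucose transporter GLUT1, at 39.8 FPKM in 2U and 47.6 in 4U against 14.5 in 2T and 11.9 in 4T.

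Genes of cell death were found in both directions. Of 12 BCL2 family genes, 3 were higher (25%, against 16.6% of all genes) and 4 lower (33.3%, against 28.2%). On the like-GC scale 4 were higher and 2 lower (33.3% and 16.7%, against 10.4% and 11.2%). BAX, which opens the outer mitochondrial membrane, was at 0.937 FPKM in 2U and 4.9 in 4U against 10.7 in 2T and 7.38 in 4T, a log2 ratio of 0.59, and 2U was the low value. BCL2L1, which encodes BCL-XL, was at 13.9 FPKM in 2U and 28.2 in 4U against 12.5 in 2T and 9.77 in 4T, and MCL1, its short-lived relative, at 2.94 FPKM in 2U and 3.06 in 4U against 0.938 in 2T and 1.65 in 4T. Against genes of like GC content at 4 h BAX stood at 1.68 and MCL1 at -1.47, while BCL2L1 at -0.61 did not pass 2-fold. As deposited, BCL2L1 alone of these passed 2-fold. BID, cut by caspases to start the mitochondrial route, was at 16.8 FPKM in 2U and 29.9 in 4U against 19.5 in 2T and 12.8 in 4T. BCL2L12 had the largest rise of the list at 1.62 FPKM in 2U and 0.394 in 4U against 1.51 in 2T and 4.74 in 4T, where 4U alone was low.

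Of 11 caspases, apoptosome genes and inhibitors of apoptosis, 4 rose and 2 fell (on the like-GC scale 2 and 1), with a median of 0.78, or 0.29 against genes of like GC content. DIABLO, the mitochondrial protein that blocks inhibitors of apoptosis, was at 4.2 FPKM in 2U and 4.71 in 4U against 23.8 in 2T and 18.3 in 4T. CYCS, which encodes cytochrome c, was at 0.625 FPKM in 2U and 4.51 in 4U against 9.17 in 2T and 12.9 in 4T. CASP4, an inflammatory caspase, was at 5.1 FPKM in 2U and 3.71 in 4U against 26 in 2T and 21.3 in 4T. All 3 were higher in both AcFBE libraries than in both DMSO libraries. Against genes of like GC content DIABLO stood at 2.69 and CASP4 at 1.94, while CYCS at 0.62 did not pass 2-fold. BIRC5, the mitotic inhibitor of apoptosis survivin, was at 85.2 FPKM in 2U and 82 in 4U against 19.2 in 2T and 23.9 in 4T. EPR1, which lies antisense to BIRC5, was at 0.116 FPKM in 2U and 0.704 in 4U against 56.7 in 2T and 56.6 in 4T. How reads were divided between EPR1 and BIRC5 is not known.

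Of 7 death receptors and adaptors 1 was higher and 4 lower (on the like-GC scale 1 and 0), with a median of -1.08 that became 0.08 against genes of like GC content. TNFRSF1A, the receptor for TNF, was at 10.3 FPKM in 2U and 21.4 in 4U against 15.3 in 2T and 6.82 in 4T, and was higher in 2T than in 2U. CFLAR, the inhibitor of caspase 8, was at 16.6 FPKM in 2U and 9.35 in 4U against 12.4 in 2T and 23.8 in 4T.

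Signalling lists held more genes that fell than rose, as all genes did (28.2% against 16.6%), and fewer that fell against genes of like GC content. Of 17 genes of the NF-kB pathway 0 were higher and 10 lower, with a median of -1.15. Against genes of like GC content the median was -0.25 and 6 were lower. RELA, the p65 subunit, was at 18.1 FPKM in 2U and 14.8 in 4U against 4.48 in 2T and 3.35 in 4T, and NFKBIA, the inhibitor that NF-kB itself induces, was at 18.4 FPKM in 2U and 20 in 4U against 2.81 in 2T and 5.55 in 4T. Both were lower in the AcFBE libraries at both times and stood at -1.28 and -1.30 against genes of like GC content at 4 h. IKBKB, the kinase that marks this inhibitor for decay, was at 1.05 FPKM in 2U and 1.02 in 4U against 0.442 in 2T and 0.289 in 4T. NFKB1 was below 1 FPKM at 4 h.

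In the RAS and MAP kinase pathway 1 of 13 genes was higher and 8 lower, with a median of -1.41, and 0 and 4 with a median of -0.33 against genes of like GC content. MAP2K2, which encodes the ERK kinase MEK2, was at 19.8 FPKM in 2U and 49.9 in 4U against 13.1 in 2T and 8.79 in 4T, and MAP2K1, its relative MEK1, at 7.83 FPKM in 2U and 4.4 in 4U against 1.84 in 2T and 1.59 in 4T. HRAS was at 84.1 FPKM in 2U and 72 in 4U against 49.7 in 2T and 26.5 in 4T. MAPK3, the ERK1 gene, was at 1.21 FPKM in 2U and 3.66 in 4U against 1.91 in 2T and 1.38 in 4T. RPS6KA1, an ERK-dependent kinase, was at 5.21 FPKM in 2U and 3.71 in 4U against 0.983 in 2T and 0.544 in 4T. MAP2K1 and RPS6KA1 were lower at both times by at least 2-fold on either scale, whereas the 2 h log2 ratio of MAP2K2 was -0.59. Against genes of like GC content at 4 h MAP2K2 stood at -1.29, while HRAS at -0.23 and MAPK3 at -0.33 did not pass 2-fold.

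In the PI3K, AKT and mTOR pathway 4 of 11 genes were lower (36.4%) and 0 higher. AKT1 (chromosome 14, 105235686 to 105262088), the kinase that carries survival signals, was at 12.3 FPKM in 2U and 19.4 in 4U against 5.91 in 2T and 2.13 in 4T, a log2 ratio of -3.18 at 4 h and -1.06 at 2 h. It stood at -2.26 against genes of like GC content, where it was the only one of the 11 that remained lower, and the median of the list was 0.60. PIK3CA and PIK3R1 were listed at 0 in all 4 libraries.

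Of 19 targets of YAP and TEAD, 2 rose and 9 fell (on the like-GC scale 1 and 7). CTGF (chromosome 6, 132269316 to 132272512), a matricellular protein and the usual reporter of YAP, was at 58.5 FPKM in 2U and 88.6 in 4U against 3.38 in 2T and 4.12 in 4T. CYR61, its relative, was at 67.8 FPKM in 2U and 219 in 4U against 41.6 in 2T and 57 in 4T. ANKRD1, a nuclear ankyrin repeat protein, rose and was at 0.229 FPKM in 2U and 0.438 in 4U against 1.48 in 2T and 2.48 in 4T. CTGF was lower at both times and stood at -4.06 against genes of like GC content at 4 h, while the list as a whole had medians of -0.56 at 4 h and 0.01 at 2 h on that scale. Among 6 TGF-beta and BMP response genes ID2, an inhibitor of helix-loop-helix factors, rose and was at 8.18 FPKM in 2U and 6.7 in 4U against 26.4 in 2T and 50.2 in 4T, and 4 genes fell (on the like-GC scale 1 and 0). ID1 was at a log2 ratio of -1.26, and at -0.34 against genes of like GC content. Of 6 growth factors and secreted signals 1 rose and 2 fell (on the like-GC scale 0 and 1). The falls were those of GDF15 and WNT5B, the latter at 134 FPKM in 2U and 63.4 in 4U against 21.1 in 2T and 19.2 in 4T. WNT5B stood at -0.80 against genes of like GC content and did not pass 2-fold there. Of 9 circadian and nuclear receptor genes 0 rose and 4 fell (on the like-GC scale 1 and 3), among them PER1, a clock gene, at 0.808 FPKM in 2U and 1.43 in 4U against 0.395 in 2T and 0.29 in 4T.

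The highest median at 4 h of any list with at least 10 genes was that of protein folding by CCT. Of 14 genes of the chaperonin CCT, which folds actin and tubulin, and of prefoldin, which delivers them, 9 were higher and 0 lower, with a median of 1.59, which became 0.70 with 2U in place of 4U. At 2 h 3 of 11 were higher and 0 lower, with a median of 0.72. CCT6A was at 80.3 FPKM in 2U and 19.1 in 4U against 88.6 in 2T and 113 in 4T, CCT8 at 147 FPKM in 2U and 67.5 in 4U against 299 in 2T and 324 in 4T and CCT5 at 177 FPKM in 2U and 96.9 in 4U against 366 in 2T and 395 in 4T. In CCT6A the 4U value stood apart below the other 3, and CCT8 and CCT5 were higher in both AcFBE libraries than in both DMSO libraries. Against genes of like GC content the median was 0.85 at 4 h, with 6 genes higher and 0 lower, and -0.29 at 2 h. PFDN2 was at 1.15 FPKM in 2U and 0.264 in 4U against a listed 0 in 2T and 90.2 in 4T, so that 4T alone was high. Whether values of PFDN2 are failed estimates was not tested.

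Of 41 proteasome subunits 15 were higher and 1 lower at 4 h, where 16.6% and 28.2% of all genes were, and 18 of 40 were higher and 5 lower at 2 h, where 23.4% and 18.1% of all genes were. PSMA4, an alpha subunit of the 20S core, was at 18.3 FPKM in 2U and 67.6 in 4U against 198 in 2T and 326 in 4T, PSMA3 at 52.9 FPKM in 2U and 37.4 in 4U against 142 in 2T and 168 in 4T, and the ATPase subunits PSMC1 and PSMC2 at 7.26 FPKM in 2U and 7.97 in 4U against 29 in 2T and 33.2 in 4T and at 26 FPKM in 2U and 22.4 in 4U against 79.7 in 2T and 99.6 in 4T. The 4 genes were higher in both AcFBE libraries than in both DMSO libraries. The medians against genes of like GC content were 0.73 at 4 h, with 11 higher and 1 lower, and 0.70 at 2 h. The immunoproteasome subunit PSMB8 was the gene that fell, and 4U alone was above 1 FPKM, the gene standing at 0.704 FPKM in 2U and 46.3 in 4U against a listed 0 in 2T and 0.524 in 4T. Whether values of PSMB8 are failed estimates was not tested. Of 18 ubiquitin genes and ligases 5 rose and 3 fell (on the like-GC scale 1 and 2). UBE2S, a mitotic ubiquitin-conjugating enzyme, was at 277 FPKM in 2U and 75.7 in 4U against 26.8 in 2T and 28.3 in 4T.

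Of 84 cytosolic ribosomal protein genes, 22 were higher and 3 lower, with a median of 0.31 at 4 h and -0.23 at 2 h. Their log2 ratios lay between -1.58 for RPL28 and 1.82 for RPL7, apart from RPL21, which was at 50.4 FPKM in 2U and 0.782 in 4U against 0.372 in 2T and 144 in 4T. RPL6 was at 464 FPKM in 2U and 425 in 4U against 1299 in 2T and 1497 in 4T and RPL11 at 4065 FPKM in 2U and 2038 in 4U against 5903 in 2T and 6714 in 4T. On the like-GC scale the list stood at 0.43 at 4 h, with 11 higher and 2 lower, and at -0.34 at 2 h. For the 76 mitochondrial ribosomal protein genes the counts were 22 and 6 (on the like-GC scale 10 and 1) and the median 0.38, led by MRPS22 at 7.76 FPKM in 2U and 4.44 in 4U against 19.6 in 2T and 23.8 in 4T.

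Of 52 translation initiation and elongation factors 15 rose and 3 fell (on the like-GC scale 10 and 5), with medians against genes of like GC content of 0.43 at 4 h and 0.53 at 2 h. EEF1A1 (chromosome 6, 74199031 to 74235310), which brings aminoacyl-tRNA to the ribosome, was at 265 FPKM in 2U and 391 in 4U against 2017 in 2T and 2081 in 4T. EIF2S2, the beta subunit of eIF2, was at 6.02 FPKM in 2U and 7.57 in 4U against 25.6 in 2T and 30.6 in 4T, and EIF3E at 22.6 FPKM in 2U and 30.3 in 4U against 91.1 in 2T and 124 in 4T. All 3 were higher in both AcFBE libraries than in both DMSO libraries. Of 22 genes for cytosolic aminoacyl-tRNA synthetases and their scaffold 11 rose and 3 fell (on the like-GC scale 4 and 0 of 18). NARS, for asparagine, was at 1.33 FPKM in 2U and 1.1 in 4U against 7.54 in 2T and 9.04 in 4T and VARS, for valine, at 7.77 FPKM in 2U and 33.2 in 4U against 11.8 in 2T and 8.05 in 4T. For 18 of the 22, which have a GC value, the medians against genes of like GC content were 0.61 and 0.67 at 4 and 2 h.

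Of 34 factors that build ribosomes 9 were higher (26.5%) and 8 lower (23.5%), against 16.6% and 28.2% of all genes, and on the like-GC scale 7 and 4 of the factors. The nucleolar proteins NPM1 and NCL rose, NPM1 at 152 FPKM in 2U and 170.3 in 4U against 654 in 2T and 688 in 4T and NCL at 1.24 FPKM in 2U and 3.21 in 4U against 11.8 in 2T and 12.8 in 4T. BOP1, which processes ribosomal RNA, fell and was at 49.7 FPKM in 2U and 71 in 4U against 25.4 in 2T and 17.7 in 4T. BOP1 stood at -0.79 against genes of like GC content, and NPM1 at 1.11.

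**Figure D4:**
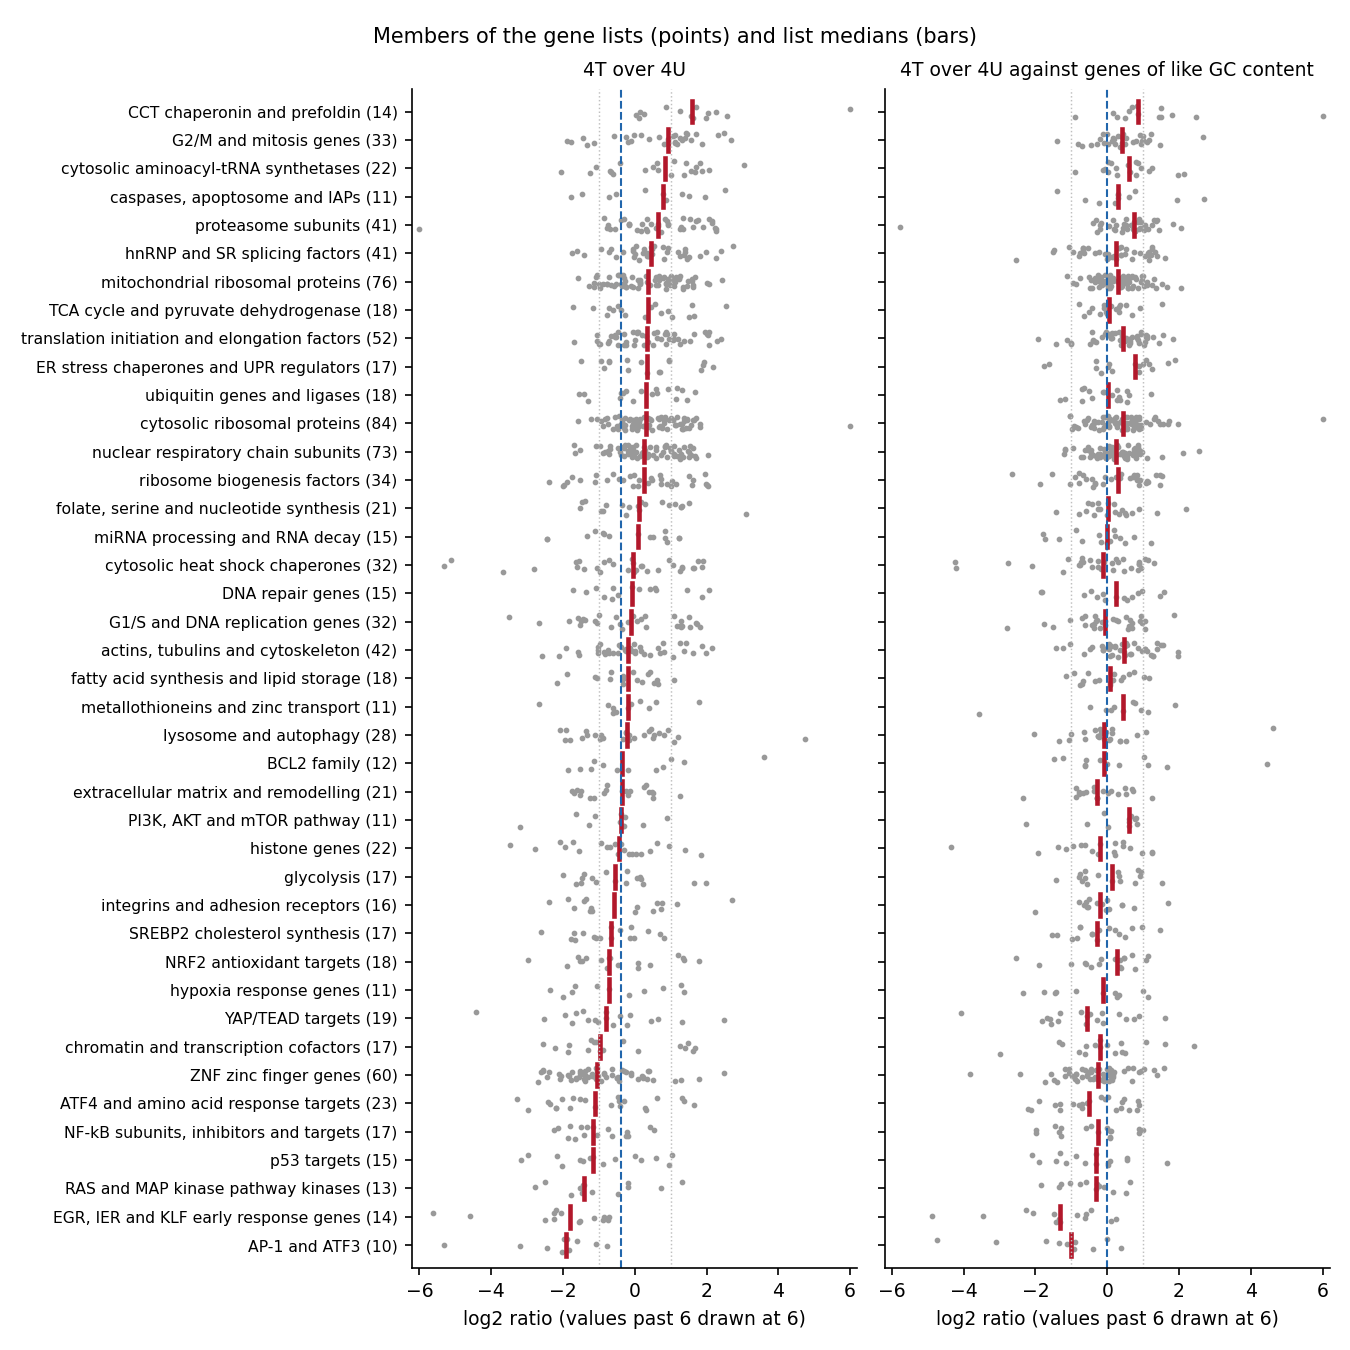
Log2 ratios of 4T to 4U (horizontal axes) for the members (points) of the gene lists with at least 10 members above 0 in both libraries (rows, number in brackets), with list medians in red; left as deposited, right against genes of like GC content, the dashed line being the median of all described genes. AP-1 genes have a median of -1.93 on the left and -1.02 on the right, and the zinc finger genes -1.07 and -0.26.

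Differences between the lists of RNA-binding and nuclear proteins were not tested. Of 41 hnRNP and SR splicing factors 12 rose and 3 fell at 4 h (on the like-GC scale 11 and 4), with medians of 0.45 at 4 h and 1.38 at 2 h. HNRNPR was at 5.4 FPKM in 2U and 5.1 in 4U against 26.8 in 2T and 27.1 in 4T, SRSF3 at 19.7 FPKM in 2U and 20.9 in 4U against 79.7 in 2T and 101 in 4T and HNRNPA1 at 16 FPKM in 2U and 38 in 4U against 60.6 in 2T and 109 in 4T. These 3 were higher in both AcFBE libraries than in both DMSO libraries. The transcripts of the list are poor in GC, with a list median of 42.4%, and against genes of like GC content the list stood at 0.25 at 4 h and 1.21 at 2 h. PTBP1, a repressor of splicing, was at 9.98 FPKM in 2U and 86 in 4U against 24.9 in 2T and 25.7 in 4T, with 4U the high value.

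Of 60 zinc finger genes named ZNF 33 fell (55%, against 28.2% of all genes) and 4 rose (6.67%, against 16.6%), with a median of -1.07 at 4 h and -0.28 at 2 h. Their transcripts are rich in GC (list median 58.6%), and against genes of like GC content 10 were lower and 4 higher (16.7% and 6.67%, against 11.2% and 10.4% of all genes) with a median of -0.26. ZNF408 was at 5.91 FPKM in 2U and 8.56 in 4U against 2.26 in 2T and 1.39 in 4T and ZNF226, which rose, at 0.208 FPKM in 2U and 0.707 in 4U against 1.33 in 2T and 3.98 in 4T. Of 17 chromatin and transcription cofactors 5 rose and 8 fell (on the like-GC scale 3 and 3). The deacetylase HDAC1 was at 1.24 FPKM in 2U and 2.27 in 4U against 5.23 in 2T and 7 in 4T, and the methyltransferase EZH2 at 1.28 FPKM in 2U and 2.08 in 4U against 3.36 in 2T and 6.61 in 4T. Of 22 histone genes above 0 in both libraries 2 rose and 6 fell (on the like-GC scale 2 and 4 of 19). H2AFZ, a variant histone with polyadenylated mRNA, rose and was at 964 FPKM in 2U and 775 in 4U against 2219 in 2T and 2775 in 4T. Replication histone genes, whose mRNAs mostly lack a poly(A) tail, were at or below 25.3 FPKM in 4U where they fell, as HIST1H1C at 12.4 FPKM in 2U and 25.3 in 4U against 9.7 in 2T and 5.93 in 4T. A further 10 histone genes at 1 FPKM or more in 4U were listed at 0 in 4T.

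Genes of miRNA processing were measured too. TARBP2, the partner of Dicer, was at 14.1 FPKM in 2U and 34.7 in 4U against 22.6 in 2T and 6.44 in 4T, and DGCR8, the partner of Drosha, at 1.65 FPKM in 2U and 7.24 in 4U against 1.07 in 2T and 1.34 in 4T. Both fell at 4 h and stood at -1.35 and -1.73 against genes of like GC content, with 2 h log2 ratios of 0.68 and -0.63. DROSHA itself, below 1 FPKM at 4 h, had close values of 0.819 in 4U and 0.816 in 4T, and DICER1 was listed at 0 in all 4 libraries. XRN2, a nuclear exonuclease, had a log2 ratio of 0.84 and did not pass 2-fold. Against genes of like GC content at 4 h XRN2 stood at 0.07, and its 2 h log2 ratio was 0.21. Its 4U value was the lowest of the 4, and with 2U in place of 4U the log2 ratio was 0.016. The exosome subunit EXOSC10 was at 23.4 FPKM in 2U and 6.03 in 4U against 18.7 in 2T and 14.2 in 4T. The list of 15 genes had 2 higher and 4 lower (on the like-GC scale 1 and 3) and a median of 0.08.

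Cell cycle genes moved in both directions. Of 33 genes of G2 and mitosis 16 were higher (48.5%, against 16.6% of all genes) and 5 lower, with a median of 0.93 and 0.41 against genes of like GC content, where 6 were higher and 1 lower. CDK1, the mitotic kinase, was at 4.04 FPKM in 2U and 4.78 in 4U against 24.9 in 2T and 27 in 4T, CCNB1, its cyclin, at 401 FPKM in 2U and 249 in 4U against 528 in 2T and 617 in 4T, and TOP2A, a topoisomerase of dividing cells, at 0.505 FPKM in 2U and 1.01 in 4U against 5.16 in 2T and 5.06 in 4T. CDK1 and TOP2A were at least 4-fold higher than DMSO at both times. FOXM1, which switches on mitotic genes, fell and was at 60.8 FPKM in 2U and 46.6 in 4U against 18.5 in 2T and 17.1 in 4T, and PLK1, the mitotic polo kinase, fell at 4 h alone and was at 67.6 FPKM in 2U and 108 in 4U against 68.2 in 2T and 48.9 in 4T. Of 32 genes of G1/S and replication 11 rose (34.4%) and 10 fell, and on the like-GC scale 3 were higher and 4 lower. A difference between the lists was not tested. PCNA, the sliding clamp, was at 47.5 FPKM in 2U and 75.7 in 4U against 215 in 2T and 217 in 4T. Its antisense PCNA-AS1 was at 0.567 FPKM in 2U and 138 in 4U against 505 in 2T and 517 in 4T. How reads were divided between PCNA and PCNA-AS1 is not known. CCND3, a cyclin of G1, was at 15 FPKM in 2U and 34.9 in 4U against 4.13 in 2T and 3.06 in 4T, CDT1, which licenses origins, at 13 FPKM in 2U and 16.6 in 4U against 5.28 in 2T and 2.59 in 4T, and GMNN, which inhibits CDT1, at 16.7 FPKM in 2U and 17.8 in 4U against 52.5 in 2T and 62.4 in 4T. CCND3 and CDT1 fell, and GMNN rose, on either scale. Of 15 DNA repair genes 3 rose and 3 fell (on the like-GC scale 2 and 2), and the rises included both Ku subunits, XRCC5 at 26.7 FPKM in 2U and 17.6 in 4U against 73 in 2T and 73.2 in 4T, and XRCC6 at 91.5 FPKM in 2U and 63 in 4U against 144 in 2T and 174 in 4T.

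In metabolism the lists, apart from cholesterol synthesis, held genes that rose and genes that fell. Of 17 glycolysis genes 2 rose and 7 fell (on the like-GC scale 1 and 1). The subunit genes of lactate dehydrogenase rose, LDHA at 957 FPKM in 2U and 409 in 4U against 1139.5 in 2T and 1294 in 4T and LDHB at 1470.0 FPKM in 2U and 701 in 4U against 2377 in 2T and 2798 in 4T, and in both the 4U value was the lowest. ALDOA, the aldolase, fell and was at 3706 FPKM in 2U and 2561 in 4U against 1070.5 in 2T and 818 in 4T, and PFKP, a phosphofructokinase, fell and was at 641 FPKM in 2U and 450.0 in 4U against 208 in 2T and 161 in 4T. GAPDH, the most abundant mRNA, was at 19176 FPKM in 2U and 36197 in 4U against 43767 in 2T and 38022 in 4T, a log2 ratio of 0.07 at 4 h. On the like-GC scale 1 glycolysis gene was higher and 1 lower, with a median of 0.13. LDHB stood at 1.52 there, while LDHA at 0.76, ALDOA at -0.57 and PFKP at -0.78 did not pass 2-fold.

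Of 18 genes of the TCA cycle and pyruvate dehydrogenase 5 rose and 2 fell (on the like-GC scale 1 and 0), DLD and PDHB being at 1.57 FPKM in 2U and 0.72 in 4U against 3.65 in 2T and 4.18 in 4T and at 14.6 FPKM in 2U and 19.8 in 4U against 55.1 in 2T and 56.2 in 4T. Cytosolic malate dehydrogenase MDH1 (chromosome 2, 63815743 to 63834331) stood at 16.8 FPKM in 2U and 29.5 in 4U against 162 in 2T and 194 in 4T, among the mRNAs that rose most at both times. Of 73 nuclear genes for the respiratory chain and ATP synthase 20 rose and 4 fell with a median of 0.25, and 4 and 3 with a median of 0.24 against genes of like GC content. ATP5F1 was at 220.1 FPKM in 2U and 83.9 in 4U against 354 in 2T and 342 in 4T and ATP5D, which fell, at 124 FPKM in 2U and 60.4 in 4U against 24.6 in 2T and 18.7 in 4T. On the like-GC scale at 4 h ATP5F1 stood at 0.91 and ATP5D at -0.48, and neither passed 2-fold. Of 21 genes of folate, serine and nucleotide synthesis 6 rose and 3 fell (on the like-GC scale 2 and 1), the purine enzyme PAICS being at 1.67 FPKM in 2U and 1.11 in 4U against 4.98 in 2T and 9.52 in 4T.

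Of 17 genes of cholesterol synthesis under SREBP2, 0 were higher and 7 lower (on the like-GC scale 1 and 2), with medians of -0.67 and -0.30 against genes of like GC content. DHCR7, which reduces a late sterol intermediate, was at 18.2 FPKM in 2U and 30.1 in 4U against 9.23 in 2T and 8.81 in 4T. Of 18 genes of fatty acid synthesis and storage 1 rose and 4 fell (on the like-GC scale 2 and 1), FASN, the fatty acid synthase, being at 2.15 FPKM in 2U and 4.84 in 4U against 1.91 in 2T and 1.09 in 4T. Of 28 lysosome and autophagy genes 3 rose and 8 fell (on the like-GC scale 2 and 4 of 27), CTSD, the protease cathepsin D, being at 25.7 FPKM in 2U and 56.6 in 4U against 30 in 2T and 16.1 in 4T.

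Among 42 actin, tubulin and cytoskeleton genes 8 rose and 8 fell, and against genes of like GC content 12 were higher and 3 lower with a median of 0.48. ZYX, a zyxin of focal adhesions that responds to serum response factor, was at 296 FPKM in 2U and 189 in 4U against 48.3 in 2T and 31.5 in 4T. LMNA, the nuclear lamin, was at 253 FPKM in 2U and 294 in 4U against 162 in 2T and 68.2 in 4T. The myosin light chain genes MYL12A and MYL12B rose, MYL12A being at 31.7 FPKM in 2U and 15.1 in 4U against 46.6 in 2T and 67.4 in 4T, and MYL12B at 127 FPKM in 2U and 85 in 4U against 258 in 2T and 336 in 4T. ACTB, the beta actin gene, had a log2 ratio of -0.27. ZYX was lower in both AcFBE libraries than in both DMSO libraries. Of 16 integrin and adhesion genes 2 rose and 8 fell (50.0%, against 28.2% of all genes), but on the like-GC scale 1 was higher and 1 lower. ITGB1, the shared beta 1 subunit, stood at 5.73 FPKM in 2U and 2.53 in 4U against 20.5 in 2T and 16.5 in 4T. ITGA3, an alpha subunit that pairs with ITGB1, was at 78.8 FPKM in 2U and 77.6 in 4U against 32 in 2T and 21.3 in 4T. ITGB1 rose and ITGA3 fell at both times. Against genes of like GC content at 4 h ITGB1 stood at 1.69, while ITGA3 at -0.79 did not pass 2-fold. Of 21 matrix genes 1 rose and 7 fell, and against genes of like GC content 1 rose and 1 fell. Among the matrix genes P4HA2, a collagen prolyl hydroxylase, was at 15.2 FPKM in 2U and 10.1 in 4U against 7.54 in 2T and 2.99 in 4T.

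Lists with at least 10 members that have a GC value can be compared at 4 h and 2 h on the scale of like GC content, since the ratios share no library. Among them the AP-1 and the EGR, IER and KLF lists were lowest at both times, at -1.02 and -1.33 at 4 h and -1.63 and -1.44 at 2 h. The DUSP, SPRY and SPRED list, with 6 members, was as low, at -1.34 and -1.54. Of the 41 lists 11 were above 0 at both times, among them proteasome genes at 0.73 and 0.70, cytoskeleton genes at 0.48 and 0.51, hnRNP and SR genes at 0.25 and 1.21, and DNA repair genes at 0.23 and 0.85. The CCT, ER chaperone and ribosomal protein lists were above 0 at 4 h and below it at 2 h.

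**Figure D5:**
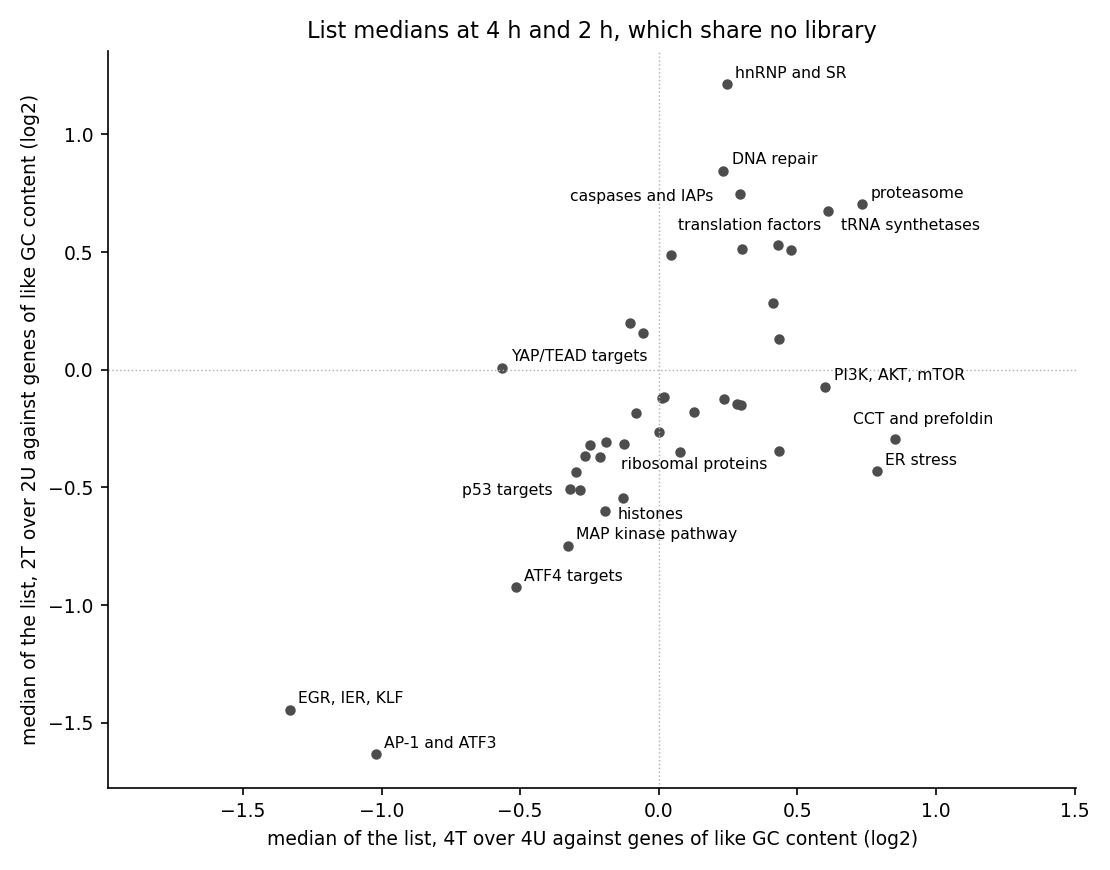
Median log2 ratio to DMSO against genes of like GC content for each gene list with at least 10 members that have a GC value (points), at 4 h (horizontal axis) and 2 h (vertical axis). The AP-1 and the EGR, IER and KLF lists are lowest of those plotted at both times, and CCT is at 0.85 at 4 h and -0.29 at 2 h.

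By size of change with 1 FPKM added to each value, HSPA1A, HSPA1B, DUSP1, EGR1, FOS, IER2 and CTGF were among the 15 largest falls. PSMB8 and RNASEH2C were among them too, RNASEH2C being at 1.19 FPKM in 2U and 35.8 in 4U against a listed 0 in 2T and 0.543 in 4T. So were readthrough transcripts, which share their exons with a neighbouring gene, LOC729991-MEF2B being at 10.1 FPKM in 2U and 43 in 4U against a listed 0 in 2T and 0.347 in 4T. MUTED-TXNDC5 was another. The other 4, the small RNAs RNU86 and SNORD43, the uncharacterised LOC100507547 and the RING finger gene RNF39, were above 1 FPKM in 4U alone and listed at 0 in the other 3 libraries. The largest rises were those of RPL21, PFDN2 and EPR1, and of ANAPC13, a subunit of the anaphase-promoting complex, which was at 24.5 FPKM in 2U and 0.628 in 4U against a listed 0 in 2T and 38.6 in 4T. Small nucleolar RNAs listed at 0 in 4U were among the largest rises too, SNORD86 being at 53 FPKM in 2U and a listed 0 in 4U against a listed 0 in 2T and 39.1 in 4T. RPL21, ANAPC13 and SNORD86 were high in 2U and 4T and near or at 0 in 2T and 4U. They thus switched against the treatment between the times. Whether such values, or those of PFDN2, PSMB8 and RNASEH2C, are failed estimates was not tested. Of the small nucleolar and Cajal body RNAs, 4 were above 0 in both libraries at 4 h, and none of these 4 passed 2-fold. C19orf33 was at 0.127 FPKM in 2U and 1.69 in 4U against 14 in 2T and 25.1 in 4T and was low in both DMSO libraries.

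A few more genes were chosen, after their values were seen, among those that moved most at both times. MORF4L2, a chromatin protein, was at 13.2 FPKM in 2U and 12 in 4U against 84.2 in 2T and 82.9 in 4T. COPS5, a subunit of the COP9 signalosome, was at 9.23 FPKM in 2U and 12.3 in 4U against 52.9 in 2T and 61.7 in 4T, and SRGN, a proteoglycan of secretory granules, at 195 FPKM in 2U and 226 in 4U against 824 in 2T and 1029.7 in 4T. In these 3 genes both AcFBE values were at least 4-fold the DMSO value of their time. On the falling side were TBRG4, a mitochondrial RNA-binding protein, at 85.8 FPKM in 2U and 83.2 in 4U against 13.5 in 2T and 10.4 in 4T, CD81, a tetraspanin, at 818 FPKM in 2U and 221 in 4U against 74.4 in 2T and 46.1 in 4T, HMGA1, a chromatin protein of dividing cells, at 420.4 FPKM in 2U and 134 in 4U against 54.5 in 2T and 28.7 in 4T, and IGFBP4, which binds insulin-like growth factors, at 524 FPKM in 2U and 374 in 4U against 72.9 in 2T and 69.8 in 4T.

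Among the 10 most abundant mRNAs of 4 h were those of GAPDH, GNB2L1, RPS3, RPL8, LGALS1, FTL, RPLP0, ENO1 and RPL18. Of these RPL18 alone passed 2-fold as deposited, at 11772 FPKM in 2U and 15296 in 4U against 7798 in 2T and 7416 in 4T. Against genes of like GC content at 4 h RPL18 stood at -0.12 and did not pass 2-fold, while FTL stood at 1.15. FTL, the ferritin light chain, was at 1883 FPKM in 2U and 14208 in 4U against 18098 in 2T and 19004 in 4T, its 2U value being far below the other 3. LGALS1, a galectin, was at 19567 FPKM in 2U and 22452 in 4U against 11422 in 2T and 12899.9 in 4T.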

How the data were processed

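RNA of SK-HEP-1 cells was measured in 1 library each of 2U, 2T, 4U and 4T. Per the labels and the study's methods the authors mapped 35-base SOLiD reads to hg19 (quality value at least 20, up to 2 mismatches) and deposited FPKM values per gene symbol. For the mRNA reads the paper names Bowtie and Cufflinks, and the submitters' processing notes name TopHat and Cufflinks. Their versions were not given in the sources used here. The study states reads per library but the files hold none per gene, so no interval is given. All values were used as deposited. Log2 ratios were taken, without a pseudocount, over genes above 0 in both libraries, and a 2-fold difference counted as a change, with no test. GC content and transcript length came from GENCODE 44 placed on GRCh37. Older symbols were matched through RefSeq synonyms. Calculations used Python 3.11.15, numpy 2.4.6 and pandas 2.3.3 and were tested on simulated data.

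The rule for named genes takes the 15 largest rises and falls ranked with 1 FPKM added, the 10 most abundant, up to 6 per list with the largest change, up to 6 highest among those listed at 0, markers, and genes the study discusses. Further list members and genes that moved at both times were named after their values were seen. The genes and lists were chosen with earlier results of these data known. The list of translation factors leaves out Argonaute genes named EIF2C and the kinases EIF2AK. Alternatives were other minimum levels, pseudocounts and scalings, 2U in place of 4U and, chosen after seeing the data, centring by GC content. The rule gives 322 genes, of which the text names 156, picked with their values known, and some are not reported here.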

Additional observations from a re-analysis of the deposited data

Results flagged for a closer look

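In 3 of the genes named above the ratios to DMSO of the early and the late time were past 2-fold in opposite directions, a difference that was not tested. This held for 12 of 276 genes that the naming rule gives and that have both ratios (4.35%), and for 214 of 5694 genes in all (3.76%). MYC had a log2 ratio of -2.25 at 4 h and 1.57 at 2 h, with values of 5.14 FPKM in 2U and 55 in 4U, and of 15.3 in 2T and 11.6 in 4T between them. PTBP1 had a log2 ratio of -1.74 at 4 h and 1.32 at 2 h. Its AcFBE values were close, 24.9 FPKM in 2T and 25.7 in 4T, and its DMSO values lay on either side of them, 9.98 FPKM in 2U and 86 in 4U. RPL21 had a log2 ratio of 7.52 at 4 h and -7.08 at 2 h, with values near 0 in 2T and 4U.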

How the results depend on the processing

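With 1 library per condition no library could be left out, and the reads behind each gene are unknown. The AcFBE and DMSO libraries can be paired by time, but no paired analysis was run and no difference was tested. With a minimum of 5 FPKM there were 3436 genes, 607 higher and 994 lower. The genes higher in 4T became 626 with the ribosomal protein median set to 0 and 605 against genes of like GC content. The genes lower in 4T became 965 with the median of all genes set to 0, 983 with equal upper quartiles and 651 against genes of like GC content. The median log2 ratio became -0.18 with no minimum, 0 with the median centred, -0.012 with equal upper quartiles and -0.68 by the ribosomal protein genes, scalings that shift every gene by 0.37, 0.36 and -0.31, and equal sums shift it by 0.03. Here a median or gene is called reversed only if it was at least 2-fold from 4U and changed sign, and smaller values that changed sign are counted apart. Of 49 list medians 3 changed sign with a minimum of 5 FPKM, among them chromatin and transcription cofactors from -0.97 to 1.26. With median centring 9 changed sign, with an added 1 FPKM or equal sums 0, against genes of like GC content 10 and with 2U in place of 4U 13. Against genes of like GC content 29 moved by less than 0.5, 19 moved by more, and that of death receptors and adaptors was reversed, to 0.085. Of 175 named genes 34 moved by less than 0.5 against genes of like GC content and 141 by more. Among the 175 genes 15 changed sign and 0 were reversed.

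Using 2U in place of 4U, 27 list medians moved by less than 0.5 and 21 by more, and that of the endothelial list, with 3 genes, was reversed to 0.13. With 2U in place of 4U, 53 of 176 named genes moved by less than 0.5 and 113 by more. Of the 176 genes 21 changed sign and 10 were reversed. Among these the log2 ratio became -0.35 for ASNS, 0.60 for BAG3, -0.72 for EXOSC10, -0.60 for HSP90AB1 and 0.38 for KRT8. It became 0.19 for MAPK3, 1.17 for MYC, 0.13 for NOS3, 1.36 for PTBP1 and 0.052 for VARS. The cause was not tested.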
